A study of Mus musculus with 18 samples.

Results

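The genes examined here are the arm of the circadian clock that contains *Dbp*, namely *Dbp*, *Tef*, *Hlf*, *Per1*, *Per2*, *Per3*, *Nr1d1*, *Nr1d2*, *Bhlhe41* and *Ciart*, which are 10 of the 37074 gene names on the array. They were chosen by name, with earlier results of these data known. Every probe that carries a member's name on a non-control spot was taken (the array still lists *Ciart* as Gm129). Each gene is represented by its brightest probe. Of the 10 genes, 9 had a probe that passed the filter on dim signals and were tested among 21542 genes, and *Bhlhe41* did not.

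RNA came from cells chelated off the ileum of 18 mice, 1 Agilent one-colour array per mouse, on which Cy3-labelled cRNA binds short DNA probes and more transcript gives a brighter spot. The groups were 6 floxed mice (iPGC1afl/fl, homozygous for a loxP-flanked Pgc1α gene and without Cre) on chow, 6 floxed mice on HFD, and 6 mice labelled iPGC1a-/- on HFD, which carried the same floxed alleles together with a Vil1-Cre transgene. The Vil1 promoter drives Cre in the intestinal epithelium, so immune and stromal cells of the same preparation keep the gene. HFD, called Western diet in the study's text, provided 42% of its kcal as fat with 0.2% cholesterol, was fed for 8 weeks from 8 weeks of age, and was compared with chow. All mice shared a C57BL6/J background and a 12-h light/dark cycle, and according to the methods all were killed at Zeitgeber Time (ZT) 3, that is 3 h after lights on, after an overnight fast. As all mice were sampled at a single time of day, a shift of a daily rhythm and a change of its level cannot be told apart, and as the ileum was measured in bulk, fewer cells of a type and less RNA per cell cannot be told apart either.

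In the mammalian clock, the activators CLOCK and BMAL1 (encoded by *Arntl*) bind E-box sequences and switch on their own repressors, the PER and CRY proteins, as well as a set of output genes. *Dbp*, *Tef* and *Hlf* encode the PAR bZIP factors, which carry the rhythm on to other genes through D-box sequences, while the related repressor NFIL3 binds the same sequences. *Nr1d1* and *Nr1d2* encode the REV-ERB nuclear receptors, which repress *Arntl* and *Nfil3* through RORE sequences. In the intestine this clock follows feeding time and is known for daily rhythms of nutrient transporters and detoxification enzymes.

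The promoters of these genes are given first because the genes moved together and because E-boxes and D-boxes are the sites the clock is known to use. RefSeq start sites on GRCm38.p6 were available for 9 of the 10 genes (all but *Per2*), and windows of 300 bases, 250 before and 50 after the start, were searched on both strands for the E-box CACGTG, the D-box TTATGTAA or TTACGTAA, the CRE TGACGTCA and the RORE core TAGGTCA. Among all 32851 windows in the table, 7.15% held the E-box, 1.06% the D-box, 1.79% the CRE and 2.61% the RORE core. The *Ciart* window held 3 E-boxes, the first *Per1* start, both *Tef* starts and the *Bhlhe41* start held 1 each, the *Per3* window held 2 D-boxes and the *Hlf* window held 1 CRE. None of these letters was found in the windows of *Dbp*, *Nr1d1* and *Nr1d2*. No match overlapped another, and a match describes the letters of this window only. The 250 bases before the start are printed below for *Dbp*, as the gene with the largest change, and for the tested genes with an E-box or D-box, in the direction of transcription, with the motif in capitals. They lie at chr7:45704997-45705246 (+ strand), chr15:81811164-81811413 (+ strand, the second of 2 starts), chr11:69098699-69098948 (+ strand, the first of 2 starts), chr4:151044666-151044915 (- strand) and chr3:95882229-95882478 (- strand).

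Dbp: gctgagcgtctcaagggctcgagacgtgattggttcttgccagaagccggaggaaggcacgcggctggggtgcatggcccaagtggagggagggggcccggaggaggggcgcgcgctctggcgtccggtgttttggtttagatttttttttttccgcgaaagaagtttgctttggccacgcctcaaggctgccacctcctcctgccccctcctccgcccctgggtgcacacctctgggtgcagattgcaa
Tef: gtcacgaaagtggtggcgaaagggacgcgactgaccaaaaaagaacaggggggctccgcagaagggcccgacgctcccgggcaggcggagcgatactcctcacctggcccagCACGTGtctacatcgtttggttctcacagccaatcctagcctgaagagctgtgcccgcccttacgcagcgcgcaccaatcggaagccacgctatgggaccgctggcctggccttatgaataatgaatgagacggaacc
Per1: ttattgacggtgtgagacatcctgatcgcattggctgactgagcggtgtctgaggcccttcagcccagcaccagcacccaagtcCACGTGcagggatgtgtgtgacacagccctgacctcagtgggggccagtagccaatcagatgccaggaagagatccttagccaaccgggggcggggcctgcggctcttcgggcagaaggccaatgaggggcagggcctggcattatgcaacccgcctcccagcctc
Per3: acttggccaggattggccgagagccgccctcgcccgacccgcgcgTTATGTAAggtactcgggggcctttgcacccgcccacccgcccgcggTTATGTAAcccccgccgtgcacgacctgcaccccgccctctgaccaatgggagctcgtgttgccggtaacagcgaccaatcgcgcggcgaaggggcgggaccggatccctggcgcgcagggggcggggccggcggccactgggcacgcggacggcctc
Ciart: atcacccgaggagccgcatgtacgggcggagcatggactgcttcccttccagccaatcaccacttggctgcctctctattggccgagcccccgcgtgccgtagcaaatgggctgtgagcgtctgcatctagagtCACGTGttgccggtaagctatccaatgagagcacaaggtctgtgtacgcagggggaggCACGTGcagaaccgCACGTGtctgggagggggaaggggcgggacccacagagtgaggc

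Counted from the start, with -1 as the base just before it, the E-boxes begin at -116, -58 and -44 in *Ciart*, at -166 in *Per1* and at -138 in *Tef*, and the D-boxes of *Per3* begin at -205 and -158.

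The arrays of the 3 groups could be compared with each other. An array had 56.3% to 62.3% of its spots well above background, any pair of arrays correlated at r = 0.967 or more across probes, and each of the 3 slides held 2 arrays of every group. The transcript of *Ppargc1a*, the gene deleted in iPGC1a-/- mice, was not lower in the arrays with that label. Its log2 signal ranged from 11.26 to 11.45 in floxed mice on HFD and from 11.36 to 12.01 in mice labelled iPGC1a-/- on HFD (difference 0.30, limma adjusted p = 0.573). Whether its probe lies in the deleted part was not determined, so this signal checks nothing about the deletion, and the genotype is used here as labelled.

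The clock output genes differed between HFD and chow in floxed mice. Of the 9 genes tested, 8 were called higher on HFD and 0 lower, where a call needed a limma adjusted p no higher than 0.05 and a change of more than 1.5-fold. Among all 21542 genes 8.43% were called in this comparison and 3.22% were called and higher on HFD. As the members were chosen with earlier results of these data known, this share is a background and not a test. *Ciart* passed the filter on dim signals only through the HFD arrays, which favours a difference. Without *Ciart* 7 of 8 genes were called, as they were when probes had to be well above background on all 18 arrays. The median log2 fold change was 1.32 over the 9 genes, 1.34 without *Ciart* and 0.003 over all genes tested. In 6 of the 9 genes (*Dbp*, *Tef*, *Hlf*, *Per2*, *Per3* and *Nr1d2*) every array on HFD was brighter than every array on chow, which held for 5.11% of all genes. The gene that was not called was *Nr1d1*.

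**Figure D1:**
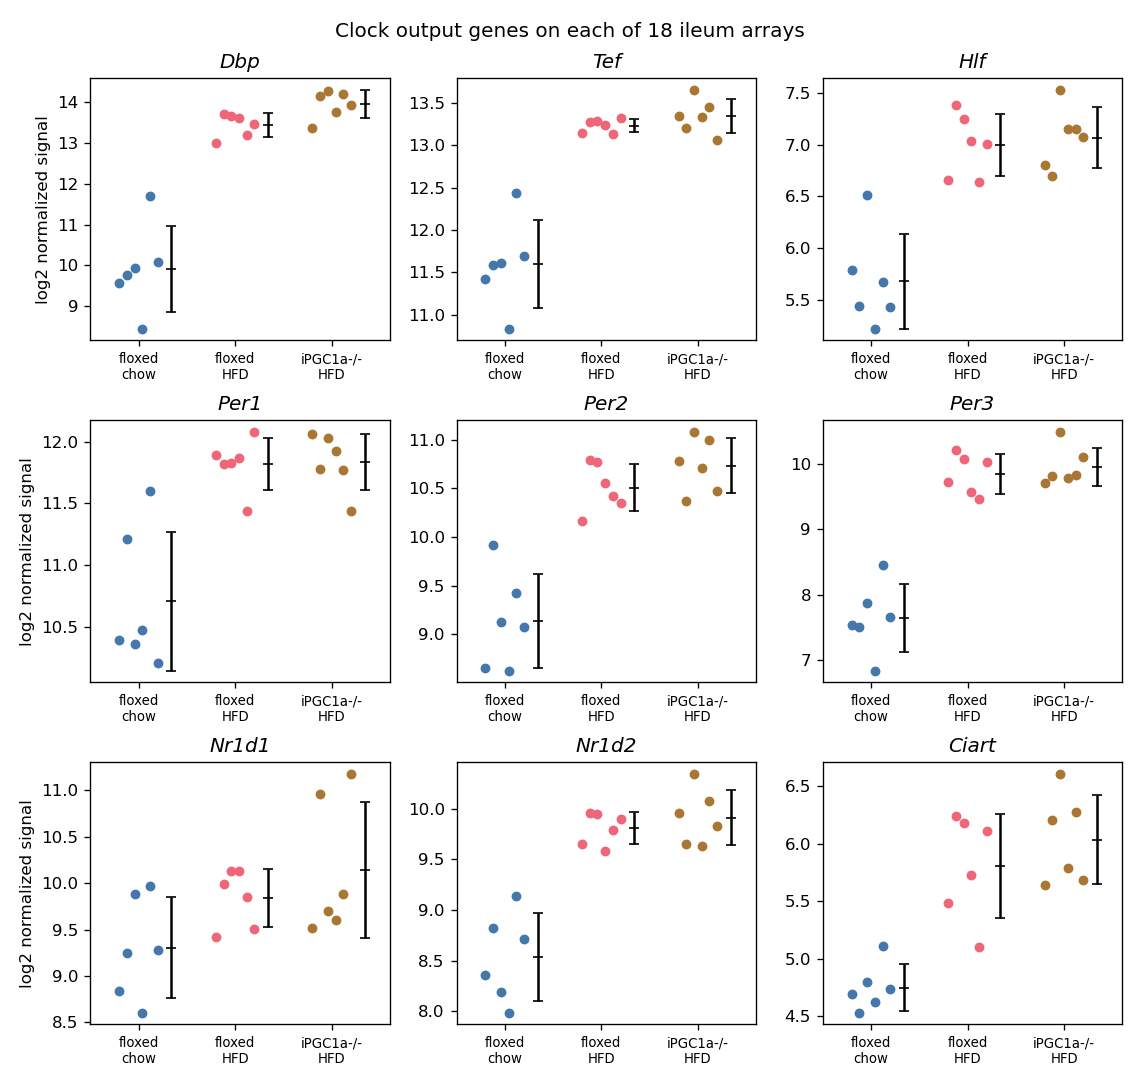
Log2 normalized signal (vertical axis, a separate scale for each gene) of the 9 tested clock output genes on each array, with points for the 6 mice of each group in order of replicate number and a bar for the mean ± SD. For *Dbp* the 6 floxed HFD points lie between 13.00 and 13.71, all above the chow points, and for *Nr1d1* the groups overlap.

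*Dbp*, the PAR bZIP factor that activates detoxification genes, showed the third largest rise of all genes tested. Its log2 signal was 8.46 at the lowest, 9.85 at the median and 11.69 at the highest on chow, and 13.00, 13.53 and 13.71 on HFD. Every array on HFD was thus well above the brightest array on chow, replicate 5. The difference was 3.51 ± 0.33 (SE) on the log2 scale, an 11.4-fold rise (95% confidence interval 7.08 to 18.4, adjusted p = 4.64e-07), and a second *Dbp* probe gave 3.51 as well. These probes lie at chr7:52965265-52965324 and chr7:52965461-52965520 of mm9, the build of the array files.

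*Tef*, which binds the same sites as *Dbp*, rose less. Its lowest, median and highest log2 signals were 10.84, 11.60 and 12.44 on chow and 13.14, 13.25 and 13.32 on HFD. The mice on HFD thus lay close together, while those on chow were spread widely, and the groups did not overlap. The rise was 3.10-fold (log2 1.63 ± 0.17, adjusted p = 1.24e-06), and all 4 *Tef* probes were called, with log2 differences of 1.04 to 1.67.

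*Hlf*, the last of the PAR bZIP genes, had a dim probe, with a raw median signal of 38 to 84.5 on chow and 96.5 to 149 on HFD. Its lowest, median and highest log2 signals were 5.22, 5.56 and 6.51 on chow and 6.64, 7.02 and 7.38 on HFD. The groups did not overlap, but the gap between them was narrow, as chow replicate 3 at 6.51 stood near the dimmest HFD array. The difference was 1.32 ± 0.19 (2.49-fold, adjusted p = 3.56e-05), and since the signal is near background the fold change understates the true one.

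The period genes encode the repressors that close the clock's main loop, and all 3 were called. *Per3* changed most among them, from 6.84, 7.60 and 8.45 (lowest, median, highest) on chow to 9.47, 9.87 and 10.21 on HFD, a 4.61-fold rise (log2 2.20 ± 0.20, adjusted p = 2.73e-07). *Per2* went from 8.63, 9.10 and 9.92 to 10.17, 10.48 and 10.79 (2.59-fold, log2 1.37 ± 0.18, adjusted p = 2.09e-05). For both genes the brightest chow array remained below the dimmest HFD array. *Per1* went from 10.21, 10.44 and 11.60 to 11.44, 11.85 and 12.08 (2.16-fold, log2 1.11 ± 0.19, adjusted p = 0.000274), and here 1 chow array, replicate 5 at 11.60, lay above the dimmest HFD array. Another *Per3* probe gave a log2 difference of 1.87 and was called. The dimmest *Per3* probe gave 1.09, but was well above background on 2 of 6 chow arrays against 6 of 6 on HFD and so passed the filter only through the HFD arrays. The dimmer *Per2* probe gave 0.53, below the fold threshold (adjusted p = 0.000231), and the dimmer *Per1* probe was not tested.

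The REV-ERB receptors parted. *Nr1d2* (REV-ERBβ) had lowest, median and highest log2 signals of 7.99, 8.54 and 9.14 on chow and 9.59, 9.85 and 9.96 on HFD, with no overlap. Its rise was 2.42-fold (log2 1.27 ± 0.16, adjusted p = 1.25e-05), and the other *Nr1d2* probes gave 1.08 and 1.14. *Nr1d1* (REV-ERBα), which is read by 1 probe, had 8.61, 9.27 and 9.97 on chow and 9.42, 9.92 and 10.13 on HFD. Chow replicates 3 and 5, at 9.89 and 9.97, lay among the HFD arrays. The difference of 0.53 ± 0.28 (95% confidence interval -0.05 to 1.12) did not pass the test (adjusted p = 0.183), and this interval reaches up to a 2.18-fold rise. *Nr1d1* overlaps the end of the gene *Thra* on the opposite strand, and its probe is therefore shown. It reads 60 bases whose mm9 positions span 503 bases of the minus strand (chr11:98630526-98631028), so that it crosses a splice junction, and its first reading frame holds no stop codon.

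Nr1d1 probe: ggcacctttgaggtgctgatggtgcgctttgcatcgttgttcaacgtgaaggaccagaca

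*Ciart*, a repressor of CLOCK and BMAL1 activity, was the faintest member tested. On chow its probe was well above background on 1 of 6 arrays, against 6 of 6 on HFD in either genotype. Its lowest, median and highest log2 signals were 4.53, 4.71 and 5.12 on chow and 5.10, 5.92 and 6.24 on HFD, so that the dimmest HFD array lay just under the brightest chow array. The log2 difference was 1.06 ± 0.19, given as a description, since the probe entered the test only through the groups in which it is bright, and the dim chow signal understates it. *Bhlhe41*, a repressor that competes for E-boxes, had 2 probes, both well above background on 0 of 18 arrays, with raw signals of 18 to 29 where the dimmest probes called present on an array read 23 to 31. A change in this gene was not detectable at this brightness.

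Between arrays labelled iPGC1a-/- and floxed arrays, both on HFD, no clock output gene was called. At the brightest probes, none had an unadjusted limma p under 0.05. Over all genes 0.135% were called in this comparison. All 9 means were higher in the iPGC1a-/- arrays, as were those of 51.9% of all genes, with a median log2 difference of 0.11 over the 9 genes and 0.006 over all genes. The groups overlapped in each of the 9 genes, as they did in all but 0.961% of all genes. *Dbp* had the largest of these differences. Its lowest, median and highest log2 signals were 13.36, 14.04 and 14.27 in iPGC1a-/- arrays, with 5 of the 6 arrays above the highest floxed array on HFD. The difference of 0.50 ± 0.33 (95% confidence interval -0.19 to 1.19) did not pass the test (limma adjusted p = 0.637). This SE pools the spread of all 3 groups, and the *Dbp* SD was 1.04 on chow, 0.28 in floxed and 0.34 in iPGC1a-/- mice on HFD. The wide chow group thus enlarges an interval for mice on HFD. Without chow replicates 4 and 5, a choice made after their values were seen, the limma adjusted p was 0.314. Over the alternatives other than leaving 1 array out it ranged from 0.304 to 0.784. *Tef*, *Hlf*, *Per3* and *Nr1d2* differed by 0.07 to 0.11, *Per2* and *Ciart* both by 0.23 and *Per1* by 0.01 log2 units. These values are those of the brightest probes, and other probes did not always give the same. A second *Dbp* probe gave 0.43, a dimmer *Per3* probe 0.38 ± 0.13 (limma adjusted p = 0.358), 1 *Tef* probe 0.28 and the dimmer *Per2* probe -0.07. The remaining probes gave 0.03 to 0.22, and no probe of a member was called. The direction for *Per1* was not stable and turned to -0.01 with the signal that Feature Extraction had corrected for background, scaled to the 75th percentile. The confidence intervals of the 9 differences reached up to 1.19 for *Dbp* and 0.41 for *Per1*.

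*Nr1d1* again behaved apart. In iPGC1a-/- arrays its log2 signal was 9.52, 9.61, 9.71 and 9.88 in replicates 1, 4, 3 and 5 but 10.96 and 11.17 in replicates 2 and 6, above all other 16 arrays of the study. The other members did not share this pattern. In replicate 6 *Tef* (13.07) and *Per1* (11.44) were the lowest of their group, and in replicate 2 the same held for *Per2* (10.37) and *Hlf* (6.70). The *Nr1d1* difference between genotypes was 0.30 ± 0.28 (adjusted p = 0.756).

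**Figure D2:**
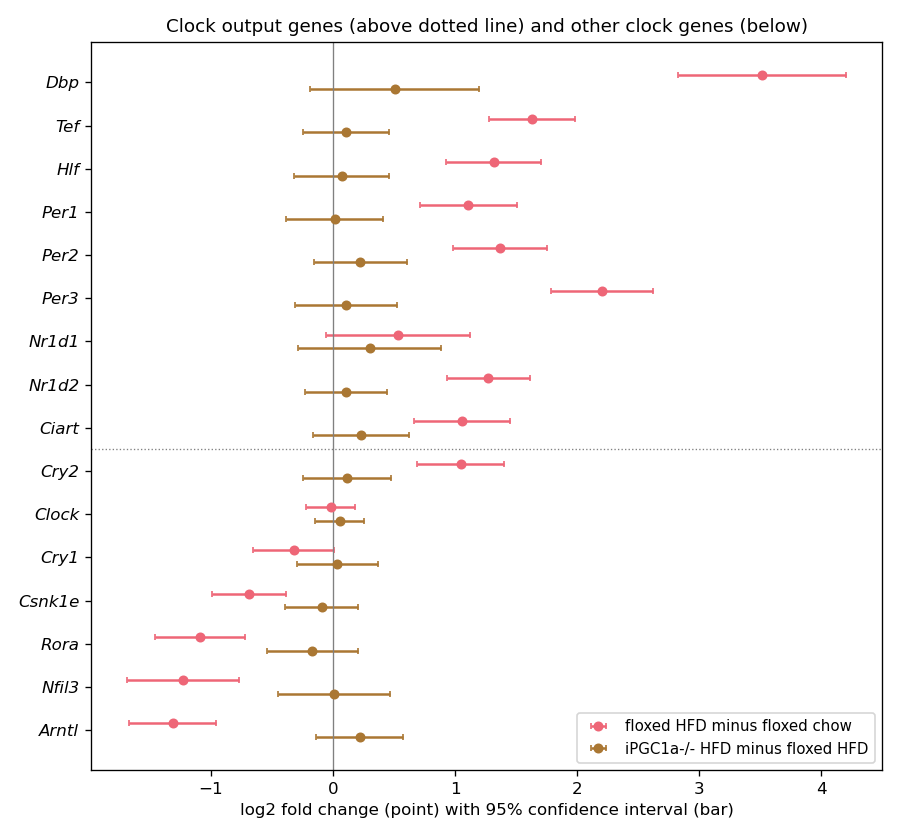
Log2 fold change (horizontal axis, point) with its 95% confidence interval (bar) for HFD against chow in floxed mice and for iPGC1a-/- against floxed mice on HFD, with the 9 clock output genes above the dotted line and other clock genes below it. The diet difference of *Dbp* is 3.51 and that of *Arntl* is -1.31, while every genotype interval crosses 0.

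The arrays labelled iPGC1a-/- on HFD were also set against floxed arrays on chow, a comparison in which diet and genotype differ together and which shares its arrays with both others. All 9 genes were called higher, or 8 of 8 without *Ciart*, where 4.94% of all genes were. *Dbp* differed by 4.02 (16.2-fold, adjusted p = 4.57e-08), *Per3* by 2.31 and *Tef* by 1.74 log2 units. *Nr1d1* passed here (log2 0.83 ± 0.28, adjusted p = 0.0267), but not without chow replicate 1 (0.74, adjusted p = 0.0635) or 4 (0.70, adjusted p = 0.0708) or iPGC1a-/- replicate 2 (0.67, adjusted p = 0.0716) or 6 (0.63, adjusted p = 0.0743), so this call rests on single arrays. With array weights it was lost too (0.51, adjusted p = 0.12).

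Whether related genes changed by the same amount was tested on the difference of the log2 signals of a pair within each array, with two-sided exact permutation tests over the 924 divisions of 12 arrays and adjustment over 18 comparisons (9 pairs in both contrasts). The smallest p this design allows is 0.00216. Between chow and HFD *Dbp* rose by 1.88 log2 units more than *Tef* and by 2.20 more than *Hlf* (exact permutation test, adjusted p = 0.00972 for both), with no overlap of the groups. *Per3* rose by 1.09 more than *Per1* (adjusted p = 0.00972) and by 0.83 more than *Per2* (adjusted p = 0.0111), and *Nr1d2* by 0.74 more than *Nr1d1* (adjusted p = 0.0146), all by the exact test. For *Tef* against *Hlf* (0.32) and *Per1* against *Per2* (-0.26) no difference was detected (exact test, adjusted p = 0.348 for both), and both signs depended on the processing. Signals of different probes need not scale alike with transcript, and dim probes compress changes, so that these are differences in log2 signal. Between genotypes on HFD, *Dbp* was shifted by 0.43 more than *Hlf* (exact permutation test, adjusted p = 0.0111) and by 0.39 more than *Tef* (adjusted p = 0.091), and the other pairs gave adjusted p values of 0.144 to 0.775 by the exact test.

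*Arntl* and *Nfil3*, the genes on the opposing side of the loop, fell with diet. *Arntl*, which encodes BMAL1, had log2 signals of 7.40 to 8.41 on chow and 6.42 to 7.34 on HFD, a difference of -1.31 ± 0.17 (limma adjusted p = 1.49e-05) without overlap. *Nfil3*, the repressor at D-boxes, ranged from 9.04 to 10.63 on chow and from 8.17 to 9.08 on HFD, a difference of -1.23 ± 0.22 (adjusted p = 0.000395) with 1 HFD array inside the chow range. The *Dbp* change exceeded that of *Nfil3* by 4.74 and the *Nr1d1* change that of *Arntl* by 1.85 log2 units (exact permutation tests, adjusted p = 0.00972 and 0.0111). As the means of each pair had changed in opposite directions, these tests add little to the single changes. Among 15 other core clock genes tested, 4 were called lower on HFD (*Arntl*, *Nfil3*, *Rora* by -1.09 and the kinase gene *Csnk1e* by -0.69), with a median of -0.26, and *Cry2*, a repressor like the period genes, was called higher by 1.05. *Clock* itself gave -0.02 (adjusted p = 0.909) and *Cry1* -0.32 (adjusted p = 0.153). Among all genes tested, 8.43% were called for diet in either direction. None of the 15 was called between genotypes, where 0.135% of all genes were.

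Genes known as clock outputs in gut or liver were counted as a further list. Among all genes tested, 3.22% were called and higher on HFD. Of the 14 genes of this list, all tested, 5 were called higher on HFD and 0 lower, with a median log2 fold change of 0.47. They were the deubiquitinase gene *Usp2* (0.99), *Por*, which donates electrons to cytochromes P450 (0.82), the drug exporter gene *Abcb1a* (0.75), the fructose transporter gene *Slc2a5* (0.72) and the peptide transporter gene *Slc15a1* (0.61). Between genotypes 0 of the 14 were called, where 0.135% of all genes were. Of 9 genes that respond to glucocorticoids or fasting, 3 were called higher on HFD (*Pdk4* by 2.27, *Klf15* by 2.08 and *Sgk1* by 0.88), and of 10 immediate early genes 0 were. The part of fasting and hormonal state in the clock gene differences was not tested.

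Markers of other cell types moved with diet as well, where 8.43% of all genes tested were called in either direction and 3.22% were called and higher. Of 8 leukocyte markers 5 were called lower on HFD, with a summed linear signal of 36380 to 45070 on chow, 27220 to 43820 on HFD and 27820 to 49320 in iPGC1a-/- arrays on HFD. Of 2 plasma cell markers 1 was lower, *Jchain* by -3.23 (limma adjusted p = 6.47e-06), without overlap of floxed mice on chow and HFD. The other, *Sdc1*, gave -0.26 and was not called. Their summed signal was 1382 to 2176, 812 to 1096 and 840 to 1140 in the same order. Of 3 goblet cell markers 2 were lower (212700 to 273300, 111600 to 226500 and 123500 to 204400). Of 2 markers each, 1 was also lower for enteroendocrine cells (*Chga* by -0.80; 6603 to 11050, 3662 to 7219 and 4715 to 5733), tuft cells (*Trpm5* by -0.63; 309.3 to 408.1, 188.5 to 443.7 and 182 to 269.5) and Paneth cells (*Mmp7* by -0.69; 59960 to 108200, 57320 to 126600 and 64270 to 110500). The other marker of enteroendocrine, tuft and Paneth cells was not called: *Chgb* gave -0.07, *Dclk1* 0.40 and *Lyz1* 0.003. None of the crypt, stromal, endothelial or neuronal and glial markers tested was called. Of 9 enterocyte markers 2 were called higher and 1 lower, and their summed signals overlapped between all groups (704700 to 873600, 750600 to 890300 and 803900 to 934800). The stromal markers *Col1a1* and *Pdgfra*, the endothelial *Cdh5* and the glial *S100b* did not pass the filter on dim signals. No marker was called between genotypes, and the part of cell composition in the clock gene differences was not tested.

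In 7 of the 9 genes the SD among mice on chow was larger than in either HFD group, the exceptions being *Nr1d1* (0.54, against 0.31 in floxed and 0.73 in iPGC1a-/- mice on HFD) and the dim *Ciart* (0.20, against 0.45 and 0.39). The SD of the *Dbp* log2 signal was 1.04 on chow, 0.28 in floxed mice on HFD and 0.34 in iPGC1a-/- mice, and the brightest chow mouse had 9.40 times the *Dbp* signal of the dimmest. Chow replicate 5 was the highest of its group in 7 of 9 genes (not in *Hlf* and *Per2*), and replicate 4 the lowest in 7 of 9 (not in *Per1* and *Ciart*). In the same replicate 5, *Arntl* (7.40), *Nfil3* (9.04) and *Cry1* (6.71) were the lowest of the chow group, and in replicate 4 *Nfil3* was the highest (10.63). The pooled SD within groups was larger for *Dbp* than for 99.2% of all genes and larger for *Nr1d1* than for 98.4%. Without both chow arrays, a setting chosen after their values were seen, the same number of genes (8 of 9) was called for diet, and the *Dbp* difference was 3.61.

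**Figure D3:**
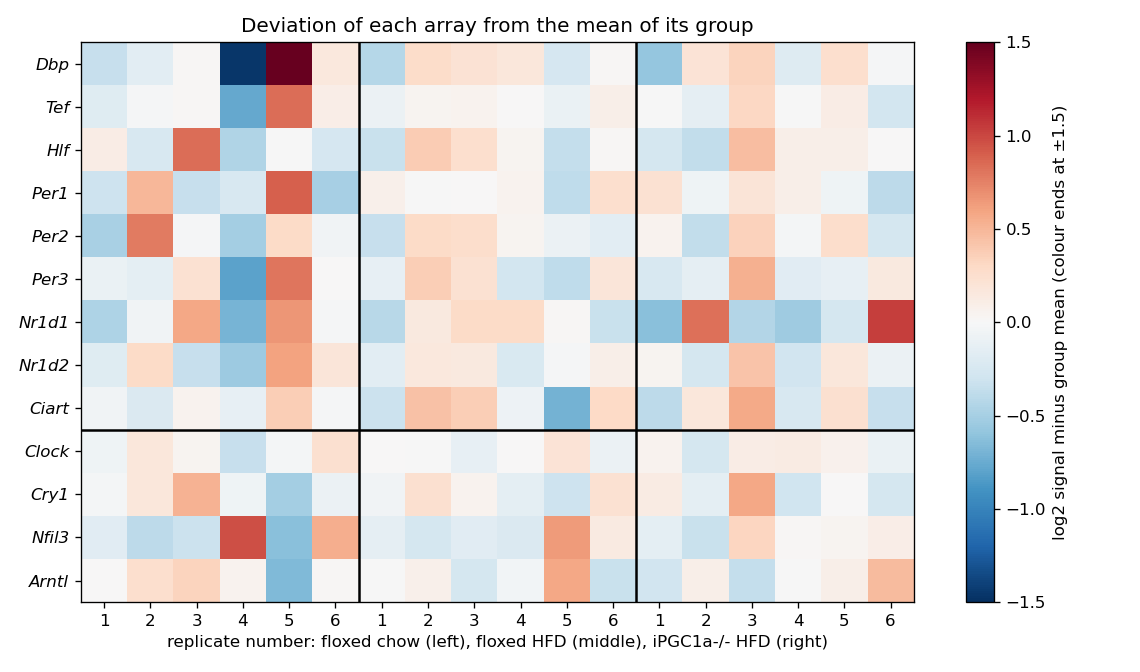
Deviation of the log2 signal from the mean of the array's own group (colour, ending at ±1.5) for 9 clock output genes and 4 other clock genes in rows and the 18 arrays in columns, by group and replicate number. In chow replicate 5 the *Dbp* signal is 11.69 and in chow replicate 4 it is 8.46, and *Nfil3* and *Dbp* take opposite colours in both.

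After the group means were removed, the remaining variation of *Dbp* over the 18 arrays was most like that of *Tef* (r = 0.91) and *Per3* (r = 0.84) among 15040 genes with an annotated symbol, followed by *Slc2a7*, a hexose transporter gene (0.84), *Spink1*, a trypsin inhibitor gene (0.84), and *Pck1*, which encodes the gluconeogenic phosphoenolpyruvate carboxykinase (0.83). The median over these genes was -0.02, the 5th percentile -0.44 and the 95th percentile 0.43. The most opposite genes were *1810065E05Rik* (-0.82), *Etfb*, a subunit of the electron transfer flavoprotein (-0.75), *Acacb*, which makes malonyl-CoA at mitochondria (-0.75), *Pttg1*, encoding securin (-0.73), and *Mras*, a small GTPase gene (-0.73). Among the clock's opposing genes, *Nfil3* had -0.58, *Rora* -0.55 and *Arntl* -0.44, but over the 6 iPGC1a-/- arrays alone their values were 0.34, 0.22 and 0.16. These values are a description over arrays that share slides and normalization, and chow arrays weigh most in them because they spread most. For *Dbp* and *Tef* r was 0.997 over the 6 chow arrays and 0.403 over the 12 HFD arrays, a split by diet made after the values were seen. For *Dbp* and *Per3* it was 0.973 and 0.583. Among the 36 pairs of the 9 genes the median r was 0.48, with *Nr1d1* and *Per1* the lowest at -0.04.

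**Figure D4:**
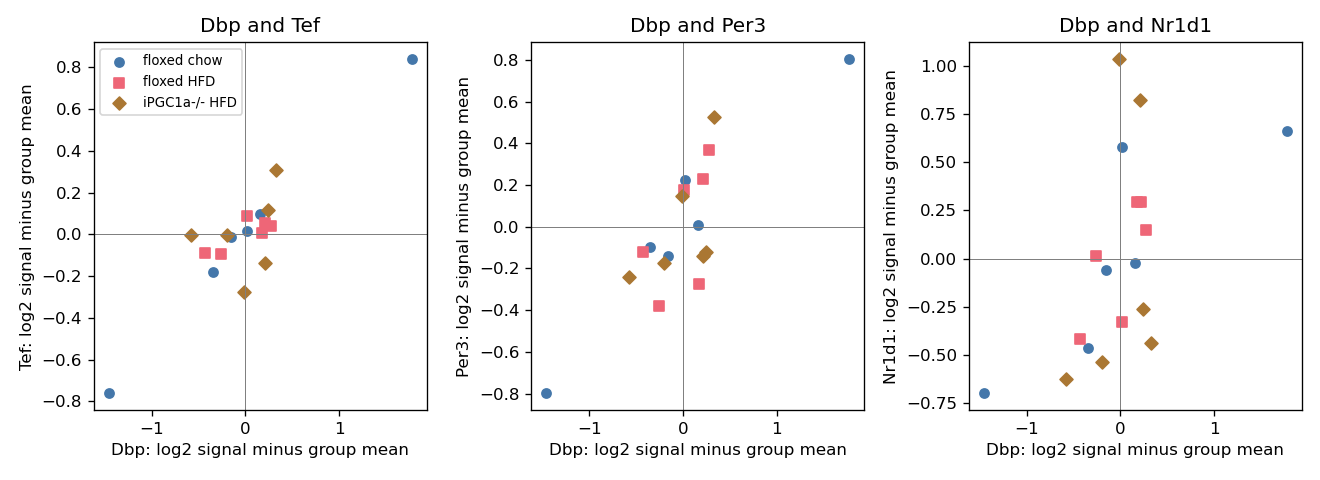
Log2 signal minus group mean of *Dbp* (horizontal axis) against that of *Tef*, *Per3* and *Nr1d1* (vertical axes), with 1 point per array and a colour and marker for each group. For *Tef* chow replicates 4 and 5 lie at opposite ends, and for *Nr1d1* the iPGC1a-/- replicates 2 and 6 stand high while their *Dbp* deviation is small.

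The slides gave the same direction for diet. On each of the 3 slides, with 2 arrays of every group, all 9 genes had a higher mean on HFD than on chow, and the *Dbp* difference was 3.69, 2.44 and 4.41 log2 units. Between genotypes the slide values of *Dbp* were 0.72, 0.51 and 0.29, those of *Per2* were positive on 3 slides, and the other 7 genes had at least 1 slide below 0.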

How the data were processed

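The authors deposited, for each of 18 one-colour arrays, unnormalized spot intensity values from Agilent Feature Extraction 10.10.1.1 (array design on mm9), and log2 values of the same arrays. The study's methods describe a filter, qsmooth, and an adjustment for the labelling serial and the washing bath; whether the deposited log2 values hold that adjustment is not stated, and the labels used here do not give those batches, so it was not repeated. Groups and replicate numbers came from the labels.

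Outlier spots were left out and spots of a probe averaged (56605 probes). The filter kept 32726 probes that were well above background on 5 or more of the 6 arrays of a group, and log2 median signals were then normalized by a reimplementation of qsmooth (window 0.05). One limma 3.58.1 model of 3 groups (lmFit, eBayes; R 4.3.3) was fitted with Benjamini-Hochberg adjustment over all probes. A call, made at a gene's brightest probe, needed an adjusted p no higher than 0.05 and a change of more than 1.5-fold. The number of arrays and the signal over background limit the precision; the median standard error was 0.105 log2 units. The procedure was tested on simulated data with known changes.

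The members and lists were chosen with earlier results of these data known. Genes named are the members, called genes of the core clock and clock output lists with *Arntl*, *Nfil3*, *Cry1* and *Clock*, the 5 most and 5 least like *Dbp*, and up to 4 called examples of other lists; a single result among the core clock genes is not reported here. Promoters came from RefSeq (GRCm38.p6), and figures were drawn with matplotlib 3.10.9 in Python 3.11.15. Alternatives covered background correction, normalization, the authors' values, filters, blocks, variance models, thresholds, probe rules and each array left out. The methods mention at least 2 cohorts of mice, but the labels do not tie arrays to a cohort or litter, and p-values measure the spread between these mice.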

Additional observations from a re-analysis of the deposited data

How the results depend on the processing

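Across the 32 alternative settings that gave fold changes, all 287 diet differences of the tested members were positive and 286 kept their side of the threshold. The exception was *Ciart*, at 0.55 (adjusted p = 0.00189) and below the fold threshold with normexp and an offset of 50, which compresses dim probes. For diet 7 or 8 members were called, and *Dbp* lay between 3.11 and 3.66 (3.23 to 3.88 with 1 array left out). For genotype 0 members were called in every setting, and *Dbp* lay between 0.45 and 0.51 (0.42 to 0.62 with 1 array left out).

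Of the genotype differences 280 of 287 were positive. *Per1* turned to -0.0088 with the background-subtracted signal and -0.0037 with the median signal, both scaled to the 75th percentile, and with 1 array left out reached -0.054 to 0.094. *Hlf* ranged from -0.013 to 0.15 with 1 array left out. In the pair tests, *Tef* minus *Hlf* turned to -0.31 with the scaled background-subtracted signal and passed at 0.67 with normexp, and *Per1* minus *Per2* turned to 0.16 with the mean of a gene's probes. The causes of these turns were not tested.

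Over all genes, 1815 were called for diet, 29 for genotype and 2542 for iPGC1a-/- on HFD against floxed chow. Without a fold threshold the counts were 5292, 49 and 7926, and above a fold of 2 they were 699, 9 and 836. For genotype 14 were called at an adjusted p of 0.01, and 19 to 40 with 1 array left out, the lowest count being without floxed HFD replicate 1, 2 or 4 or iPGC1a-/- replicate 3.

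The replicate numbers are shared between groups, and the labels do not say whether they pair mice. After group means were removed, same-numbered arrays correlated between -0.227 and 0.348. Differently numbered arrays were not compared, so these values cannot tell whether the numbers pair mice. With a replicate block, 8, 0 and 9 members and 1828, 25 and 2576 genes were called, and the *Dbp* diet difference was 3.51 (adjusted p = 2.78e-06). The authors' table, which holds 33095 probes with column medians of 7.44, held 9 of the 10 genes. It correlated with the values used here, which carry no batch adjustment, at r = 0.99999 or more on every array. The setting with the authors' values is thus close to a repeat of the main one and no separate check on batches. Members near background, *Hlf*, *Ciart* and *Bhlhe41*, are those that brightness limits.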
